A study of Homo sapiens with 6 samples.

Results

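The 38 genes described here encode subunits of the BAF (SWI/SNF) and NuRD chromatin remodelling complexes, 26 of BAF and 12 of NuRD. They were chosen by name, and each was found among the 35580 genes with a transcript in the deposited tables. The libraries were made from Rh30, a line of alveolar rhabdomyosarcoma in which a translocation joins PAX3 to FOXO1, and all 6 libraries share this background. Of these libraries, 3 came from control cells, labelled CTR, and 3 from cells with a knockdown of DDX5, a DEAD-box RNA helicase, labelled siDDX5. Both groups were from the same line, and the labels name neither the siRNA sequences nor the time after transfection. Messenger RNA was sequenced with a stranded kit, and levels were estimated per transcript. The levels below are in TPM, a unit scaled to a common total per library and corrected for transcript length that allows genes to be set against each other. They are levels of RNA, and neither protein nor the assembly of the complexes was measured. Comparisons between the groups use CPM, estimated counts scaled to a common library size with TMM factors. The labels do not say whether the replicates were separate cultures, so p-values measure the spread between these libraries, which may be technical.

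Both complexes use ATP to reposition, evict or exchange nucleosomes. BAF complexes are built around one of a pair of ATPases, SMARCA4 (BRG1) or SMARCA2 (BRM), on a scaffold that includes SMARCC and SMARCD subunits. SMARCE1 and SMARCB1 belong to some of the BAF forms. An ARID1 subunit with a DPF subunit defines canonical BAF, ARID2 with PBRM1, BRD7 and PHF10 defines PBAF, and BRD9 marks the non-canonical form. NuRD joins a CHD ATPase to the histone deacetylases HDAC1 and HDAC2 through MTA scaffold proteins, with MBD and GATAD2 subunits. In muscle precursors, BAF acts with MYOD1 at myogenic genes, and CHD4 has been described as a partner of PAX3-FOXO1 in rhabdomyosarcoma.

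The libraries held 21265569 to 26156858 estimated counts in control and 18202402 to 19971888 in siDDX5, so each siDDX5 library was shallower than each control library. A count of 3 corresponded to 0.115 to 0.165 CPM. DDX5 itself fell from 1310 ± 153 CPM to 483 ± 79.0 CPM (SD, n = 3 each), which is -1.44 on the log2 scale (SE 0.15, adjusted p = 0.0106, edgeR's quasi-likelihood test). Leaving out control replicate 1, siDDX5 replicate 1 or siDDX5 replicate 2 took the adjusted p of DDX5 in that test to 0.0955, 0.0655 and 0.0531. Of 8 rhabdomyosarcoma and muscle markers, 7 had a mean of at least 1 TPM, among them MYOD1 (110 to 163 TPM) and DES (401 to 589 TPM), and TFAP2B was listed at 0 in every library. The summed level of these markers was 1050 to 1330 TPM in control and 999 to 1060 TPM in siDDX5. The 3 haematopoietic markers reported here summed to 17.3 to 20.1 TPM in control and 11.1 to 13.0 TPM in siDDX5, with CD3E below 0.1 TPM throughout and CD68 at 9.44 to 16.7 TPM. Epithelial markers summed to at most 1.51 TPM, endothelial to at most 7.27 TPM and neural to at most 8.32 TPM. The part of these lists in the results below was not tested, and in whole cultures fewer cells of one kind and less RNA per cell cannot be told apart. The library siDDX5 replicate 2 had the lowest TPM of the 6 for 22 of 36 subunits (61.1%), against 39.0% of all 15223 genes tested. In CPM it was the lowest for 12 of 36 (33.3%), against 22.8%.

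Rh30 cells expressed nearly the whole set. Of the 38 subunits, 36 passed the filter on low counts, and these are the ones meant by 36 below. ACTL6B, a neuronal actin-like BAF subunit, had 0 to 2 counts per library and was at or below the count floor in all 6. CHD5, a NuRD ATPase known from brain and testis, had 3 to 4 counts in the control libraries and 0 to 2 in the siDDX5 libraries, and no fold is given for either gene. The highest subunit in control was HDAC2 at 279 ± 11.8 TPM (SD, n = 3), followed by SMARCE1 at 181 ± 8.23, CHD4 at 150 ± 14.2 and ACTL6A at 126 ± 9.27 TPM. SMARCE1 and CHD4 did not overlap in their control values, whereas CHD4 (135 to 164 TPM) and ACTL6A (118 to 136 TPM) did. The lowest of the 36 were DPF1 at 9.99 ± 0.273, DPF3 at 7.07 ± 0.44 and BCL7A at 5.22 ± 0.615 TPM.

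**Figure D1:**
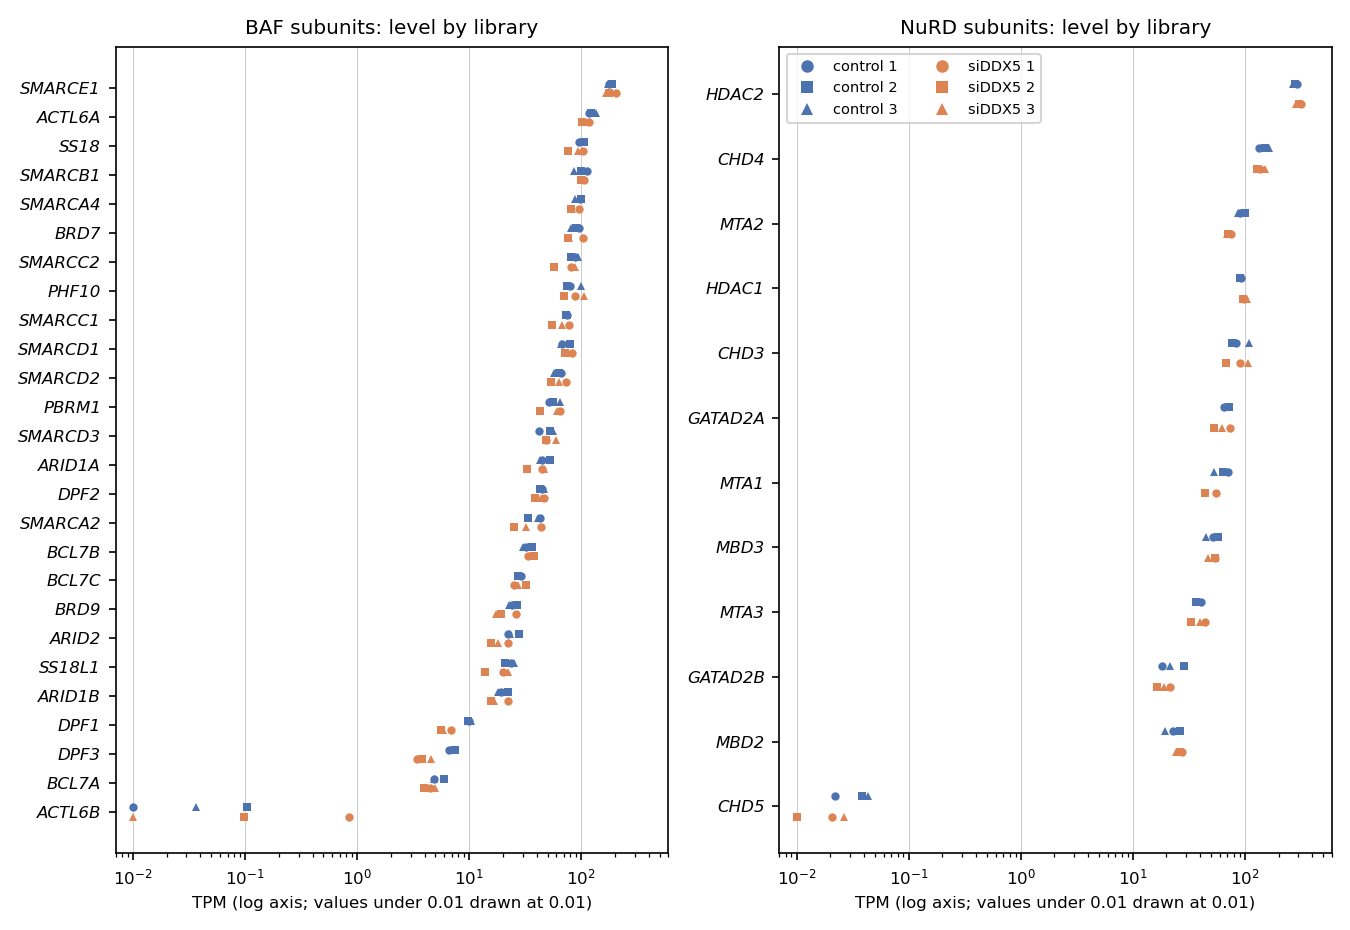
Level of each BAF subunit (left) and NuRD subunit (right) in TPM on a log axis, 1 point per library, with control in blue above and siDDX5 in orange below, ordered by the control mean. HDAC2 and SMARCE1 lie above 150 TPM in all 6 libraries, most others lie between 10 and 150 TPM, and ACTL6B and CHD5 lie under 1 TPM.

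Knockdown of DDX5 was accompanied by no detected change of a BAF or NuRD subunit at the gene level, except for SMARCC2 once the libraries were paired. With the group as the only term, edgeR called none of the 36 subunits at the adjusted threshold of 0.05, where 25 of 15223 genes (0.164%) did. The DESeq2 Wald test also called 0 subunits, where 278 of 15223 genes were called. It gave 5 subunits at an unadjusted p under 0.05, and its share over all genes at that limit is not given here. In edgeR there were 5 subunits (13.9%) at an unadjusted p under 0.05, against 11.4% of all genes. The 5 were MTA2, ARID2, SMARCC2 and DPF1 with lower means in siDDX5, and HDAC1 with a higher mean. Log2 fold changes of the 36 ran from -0.46 (DPF3) to 0.23 (HDAC1), with a median of 0.00, as over all genes. By complex the median was -0.04 for the 25 BAF subunits tested and 0.04 for the 11 NuRD subunits tested. Intervals of 95% lay within a 2-fold change for 36 of 36 subunits, against 84.2% of all genes, and within 1.5-fold for 32 of 36, against 53.8%. 

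Control and siDDX5 values did not overlap in CPM for 8 of the 36 subunits (22.2%), near the 18.0% of all genes. In 6 of them the siDDX5 values were the lower ones (MTA2, ARID2, SMARCC2, DPF1, ARID1A and CHD4), against 9.16% of all genes. HDAC1 and HDAC2 were the 2 with the higher siDDX5 values, against 8.87% of all genes. Same-numbered libraries varied together, and adding a replicate block to the fit called 1 subunit, SMARCC2, where 394 of all genes (2.59%) were called. At an unadjusted p under 0.05 the block gave 10 of 36 subunits (27.8%), against 20.5% of all genes.

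**Figure D2:**
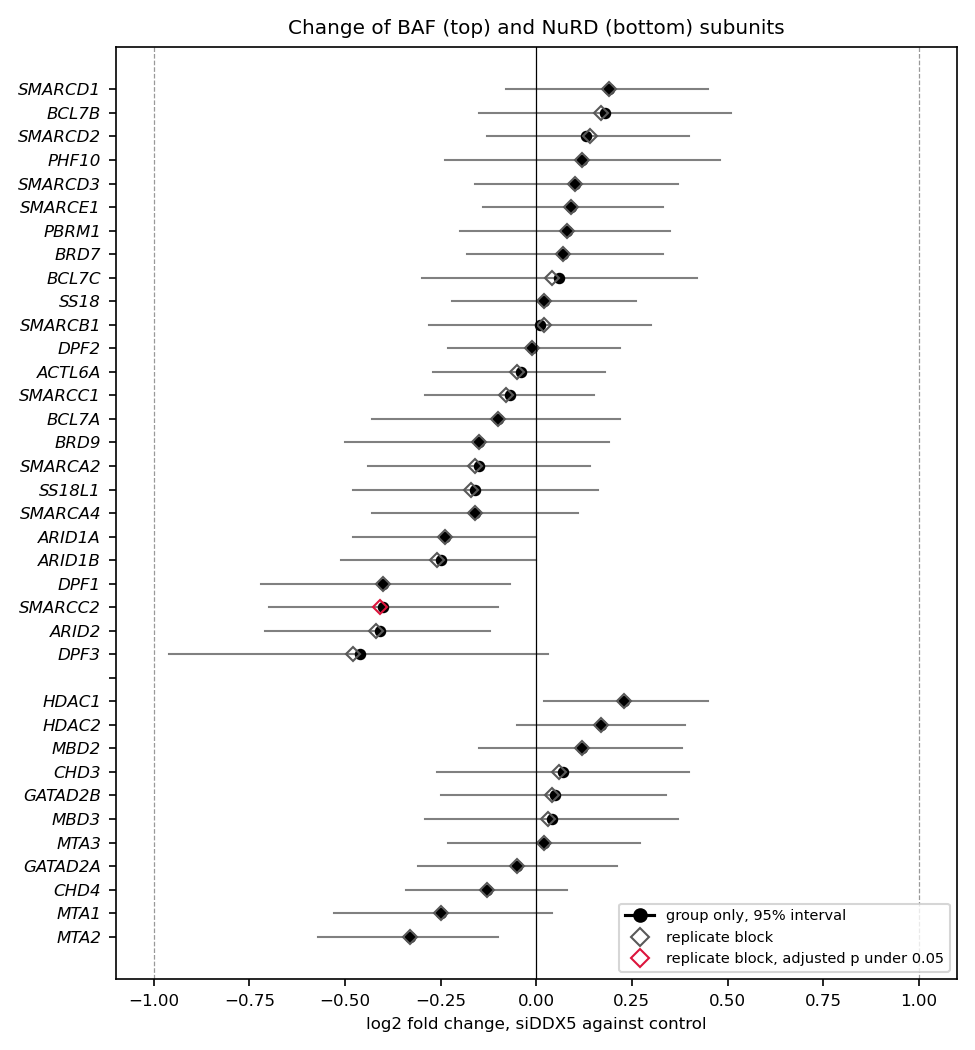
Log2 fold change of siDDX5 against control for the 25 BAF (top) and 11 NuRD (bottom) subunits tested, as filled points with 95% intervals from the fit with the group alone and as open diamonds from the fit with the replicate block. Every interval lies inside the dashed lines at a 2-fold change, and SMARCC2 (red diamond) is the subunit with an adjusted p under 0.05 in the blocked fit.

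SMARCA4 was the leading BAF ATPase by transcript level. Its level was 96.9, 99.7 and 88.6 TPM in control replicates 1, 2 and 3 and 95.5, 81.1 and 82.2 TPM in the siDDX5 replicates. SMARCA2, the alternative ATPase, stood at 42.7, 33.2 and 40.9 TPM in control and 43.3, 25.1 and 32.1 TPM in siDDX5. SMARCA4 thus lay above SMARCA2 in every library, while both genes overlapped between the groups. SMARCA4 made up 70.9% ± 3.57 of the pair in control and 72.4% ± 3.81 in siDDX5 (SD, n = 3), a difference of 1.44 percentage points (exact two-sided permutation test, p = 0.6). Across 14 such families of paralogs the smallest p that 3 against 3 libraries can give is 0.1, and the smallest value after adjustment over the families was 0.7. The SMARCA4 difference changed sign without siDDX5 replicate 2, to -0.571 points, and was 0.0157 points in estimated counts and 4.36 points in protein-coding transcripts alone (exact permutation p = 0.3). In CPM the log2 fold change was -0.16 for SMARCA4 (SE 0.12) and -0.15 for SMARCA2 (SE 0.13), with adjusted p of 0.648 and 0.698 in edgeR.

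SMARCA4 transcripts differ by a coding exon of 99 bases, which adds 33 codons without shifting the frame. The exon lies at chr19:11033767-11033865 on the plus strand (GRCh38) and is exon 28 of ENST00000429416. It is shown because transcripts with it and without it were both present and because that transcript decided the usage test below. Capitals mark the exon, and lower case the 15 bases on each side in the spliced transcript.
SMARCA4 exon 28: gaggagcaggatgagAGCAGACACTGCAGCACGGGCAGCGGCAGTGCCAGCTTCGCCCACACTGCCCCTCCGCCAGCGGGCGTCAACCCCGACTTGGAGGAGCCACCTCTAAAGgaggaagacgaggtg

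Of the TPM of SMARCA4 transcripts that span this position, those with the exon held 16.2%, 21.9% and 24.3% in control and 19.7%, 21.1% and 24.0% in siDDX5. The form without the exon thus prevailed in every library, and the groups overlapped (20.8% ± 4.17 and 21.6% ± 2.22).

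Both SMARCC scaffold subunits, which hold the complex together as a dimer, had similar transcript levels. SMARCC2 stood at 87.8, 80.5 and 94.3 TPM in control and 81.8, 56.6 and 88.0 TPM in siDDX5, and SMARCC1 at 73.7 ± 1.17 and 66.9 ± 11.8 TPM. SMARCC2 held 54.2% ± 1.7 of the pair in control and 52.8% ± 3.11 in siDDX5. Counting only transcripts annotated as protein-coding, SMARCC2 held 52.5% ± 2.54 in control and 42.4% ± 5.32 in siDDX5, without overlap, so that SMARCC1 had the larger mean in siDDX5 on that scale.

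In CPM, SMARCC2 (chromosome 12, 56162983 to 56189567, minus strand) measured 185, 177 and 209 in control and 141, 123 and 170 in siDDX5. All siDDX5 values lay below all control values. Its log2 fold change was -0.40 (SE 0.13), a ratio of 0.759, with an adjusted p of 0.308 in edgeR and of 0.0494 with the replicate block (log2 fold change -0.41). With counts rebuilt from length-scaled TPM, the SMARCC2 change was -0.17 with an adjusted p of 0.736 in edgeR. SMARCC1 had a log2 fold change of -0.07 (SE 0.10).

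SMARCC2 transcripts also differ by an in-frame coding exon, of 93 bases or 31 codons, at chr12:56172937-56173029 on the minus strand (GRCh38). It is exon 18 of ENST00000550164, and it is shown because the 2 most used coding transcripts of this gene are told apart by it. Capitals mark the exon and lower case the adjoining 15 bases of the transcript on each side.
SMARCC2 exon 18: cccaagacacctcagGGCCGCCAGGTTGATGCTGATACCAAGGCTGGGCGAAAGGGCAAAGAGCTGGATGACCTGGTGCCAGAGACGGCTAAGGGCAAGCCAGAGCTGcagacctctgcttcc

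ENST00000267064, which lacks the exon, was at 18.6, 20.9 and 23.3 TPM in control and 13.3, 6.81 and 14.7 TPM in siDDX5, without overlap. ENST00000550164, which has it, was at 20.7, 19.6 and 21.7 TPM in control and 15.9, 16.9 and 22.4 TPM in siDDX5, with overlap. Over all SMARCC2 transcripts that span the position, those with the exon held 39.3% ± 3.03 in control and 39.0% ± 5.26 in siDDX5. The exon's overall share therefore overlapped between the groups although one transcript without it did not. These transcripts were chosen after their values were seen and are given with no separate test. SMARCC2 was not called in the test of transcript usage described below, except when siDDX5 replicate 2 was left out.

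Among the SMARCD subunits, which link remodellers to transcription factors, no single paralog dominated. In control SMARCD1 held 38.6% ± 2.12 of the family TPM, SMARCD2 33.9% ± 3.19 and SMARCD3, the form known for its role in muscle and heart, 27.5% ± 3.84. SMARCD1 measured 67.1, 80.0 and 65.4 TPM in control and 82.1, 72.1 and 75.8 TPM in siDDX5, with overlap. In protein-coding transcripts alone SMARCD2 led in control, with 44.9% ± 0.899 against 42.6% ± 1.17 for SMARCD1, and SMARCD3 held 12.4% ± 0.802. The log2 fold changes of SMARCD1, SMARCD2 and SMARCD3 were 0.19, 0.13 and 0.10.

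SMARCE1, SMARCB1 and the ACTL6, BCL7 and SS18 subunits overlapped between the groups. SMARCE1, a DNA-binding HMG-box subunit, had a log2 fold change of 0.09, and SMARCB1, a tumour suppressor that contacts the nucleosome, one of 0.01 (99.3 ± 13.2 TPM in control and 101 ± 3.89 in siDDX5). ACTL6A, an actin-like protein, measured 118, 123 and 136 TPM in control and 118, 101 and 113 TPM in siDDX5, and ACTL6B added less than 1% of the pair in each library. BCL7B measured 32.2, 36.1 and 30.2 TPM in control and 33.8, 37.7 and 35 TPM in siDDX5. BCL7B held 49.7% ± 2.29, BCL7C 42.4% ± 2.86 and BCL7A 7.9% ± 0.633 of the BCL7 family in control. BCL7C led in protein-coding transcripts alone, with 54.2% ± 2.59. The SS18 subunit, known from the SS18-SSX fusion of synovial sarcoma, measured 95.3, 106 and 105 TPM in control and 103, 76.7 and 92.9 TPM in siDDX5. SS18 held 81.4% ± 1.85 of its pair with SS18L1, and in CPM had a log2 fold change of 0.02 (SE 0.11). SS18L1 and BCL7A had log2 fold changes of -0.16 and -0.10, BCL7B and BCL7C of 0.18 and 0.06, and ACTL6A of -0.04. 

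SMARCB1 reads fell mainly on a pair of transcripts that lie outside the primary-assembly annotation and were joined by gene symbol, so their exons and coding status are not given here. ENST00000631333 measured 23.2, 26.9 and 24.9 TPM in control and 37.2, 35.5 and 38.7 TPM in siDDX5, without overlap. ENST00000618915 measured 68.8, 56.2 and 51.6 TPM in control and 56.4, 53.7 and 46.5 TPM in siDDX5, with overlap. ENST00000631333 thus held 24.6% ± 4.34 of the SMARCB1 counts in control and 36.3% ± 2.54 in siDDX5. This pair was also chosen after its values were seen. SMARCB1 was not called in the test of transcript usage described below, without or with the replicate block. Its deciding transcript in that test was ENST00000631333. Among the alternatives, SMARCB1 was called only with no count filter.

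ARID1A was the main ARID1 subunit, the large DNA-binding subunit that defines canonical BAF. Its level was 45.0, 52.1 and 43.0 TPM in control and 44.2, 32.5 and 46.2 TPM in siDDX5, or 70.3% ± 0.071 and 69.2% ± 3.75 of its pair with ARID1B. On the CPM scale ARID1A measured 186, 182 and 175 in control and 169, 139 and 153 in siDDX5. The CPM groups did not overlap while the TPM groups did, and the log2 fold change was -0.24 (SE 0.11, adjusted p = 0.449 in edgeR). ARID1B measured 64.6, 62.6 and 58.3 CPM in control and 58.4, 47.6 and 49.6 CPM in siDDX5, which overlapped narrowly (log2 fold change -0.25, SE 0.11, adjusted p = 0.444 in edgeR). With length-scaled TPM counts the changes were -0.15 for ARID1A and -0.08 for ARID1B.

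DPF2 was the main DPF subunit, a family whose PHD fingers read acetylated and other modified histone tails. It measured 44.6, 42.9 and 46.6 TPM in control and 46.8, 38.3 and 44.1 TPM in siDDX5. DPF1, a neuronal form, measured 9.92, 9.75 and 10.3 TPM in control and 6.86, 5.55 and 5.81 TPM in siDDX5. DPF3, a form of heart and skeletal muscle, measured 6.64, 7.52 and 7.04 TPM in control and 3.4, 3.78 and 4.56 TPM in siDDX5. Both minor forms were lower in all siDDX5 libraries in TPM, and DPF2 overlapped. DPF2 thereby held 72.4% ± 0.933 of the family in control and 81.1% ± 0.823 in siDDX5, without overlap (difference 8.77 points, exact permutation p = 0.1, adjusted over 14 families 0.7). 

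In CPM, DPF2 had a log2 fold change of -0.01 (SE 0.10). DPF1 measured 9.54, 9.38 and 9.41 CPM in control and 7.11, 7.28 and 7.17 CPM in siDDX5, with an adjusted p of 0.343 in edgeR (log2 fold change -0.40, SE 0.15). DPF3 measured 8.2, 10.8 and 11 CPM in control and 5.23, 9.15 and 7.37 CPM in siDDX5, with overlap and the widest interval of the 36 subunits (log2 fold change -0.46, 95% interval -0.96 to 0.03, adjusted p = 0.473 in edgeR). Their changes from length-scaled TPM counts were -0.67 and -0.80, with adjusted p of 0.263 and 0.244 in edgeR. DPF1 rested on 130.4 to 245.4 counts per library and DPF3 on 106 to 266. Only 24.0% ± 2.7 of the DPF3 TPM in control was in protein-coding transcripts, against 45.5% ± 9.1 in siDDX5.

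Among the PBAF subunits, values of ARID2, the subunit that defines this form, were apart between the groups in CPM but not in TPM, and it was not called. ARID2 (chromosome 12, 45729665 to 45908040, plus strand) measured 78.5, 90.3 and 81.8 CPM in control and 73.4, 54.0 and 60.6 CPM in siDDX5. In TPM it measured 22.1, 27.8 and 23.3 in control and 22.4, 15.5 and 18.0 in siDDX5. The CPM groups did not overlap, the TPM groups did, and the log2 fold change was -0.41 (SE 0.13, adjusted p = 0.275 in edgeR, 0.0958 with the replicate block). BRD7, a bromodomain subunit, measured 95.9, 89.6 and 80.4 TPM in control and 103, 76.8 and 77.5 TPM in siDDX5. PHF10, a PHD-finger subunit, measured 84.3 ± 12.9 TPM in control and 87.9 ± 18.3 in siDDX5, and PBRM1, which carries several bromodomains, 57.2 ± 6.57 and 55.9 ± 11.2 TPM. These 3 overlapped between the groups, with log2 fold changes of 0.07, 0.12 and 0.08. BRD9, the bromodomain subunit of non-canonical BAF, measured 24.1, 26.5 and 22.8 TPM in control and 26.3, 19.3 and 17.3 TPM in siDDX5 (log2 fold change -0.15, SE 0.15). BRD7 held 78.3% ± 1.43 of the BRD7 and BRD9 total in control and 80.4% ± 1.15 in siDDX5.

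PBRM1 carries a pair of in-frame coding exons whose shares did not overlap between the groups, and both are shown for that reason. The first, of 96 bases or 32 codons, is exon 9 of ENST00000337303 at chr3:52643248-52643343. The second, of 156 bases or 52 codons, is exon 25 of ENST00000356770 at chr3:52554724-52554879. Both are on the minus strand of GRCh38, with the exon in capitals and 15 flanking transcript bases in lower case.
PBRM1 exon 9: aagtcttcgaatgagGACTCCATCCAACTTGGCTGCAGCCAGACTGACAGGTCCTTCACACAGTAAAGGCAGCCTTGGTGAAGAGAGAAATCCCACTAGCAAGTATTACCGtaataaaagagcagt
PBRM1 exon 25: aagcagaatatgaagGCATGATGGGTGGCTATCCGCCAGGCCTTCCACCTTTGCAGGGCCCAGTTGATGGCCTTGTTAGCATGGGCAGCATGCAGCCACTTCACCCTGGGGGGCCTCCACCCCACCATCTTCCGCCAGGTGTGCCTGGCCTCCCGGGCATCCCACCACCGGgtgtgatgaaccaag

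Transcripts with the shorter exon held 49.5%, 45.9% and 50% of the PBRM1 TPM spanning it in control and 42.2%, 36.4% and 38.5% in siDDX5. Transcripts with the longer exon held 72.3%, 72.2% and 68.2% in control and 76.1%, 81.2% and 81.4% in siDDX5. In each siDDX5 library the share of the shorter exon thus lay below, and that of the longer one above, every control library. These shares are not independent, because ENST00000356770 has the longer exon and was the only transcript counted without the shorter one. It measured 18.2, 21.2 and 22.8 TPM in control and 25.7, 20.4 and 26.3 TPM in siDDX5. For each exon, the summed TPM with it and the summed TPM without it overlapped between the groups. ENST00000337303, which has the shorter exon and lacks the longer one, measured 6.63, 6.93 and 9.76 TPM in control and 5.47, 4.35 and 4.55 TPM in siDDX5. These exons were picked after their values were seen, and PBRM1 was not called in the test of transcript usage described below.

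Among the NuRD paralogs, CHD4, HDAC2, MTA2, MBD3 and GATAD2A had the highest transcript levels of their families in Rh30. CHD4, the main NuRD ATPase, measured 135, 152 and 164 TPM in control and 136, 128 and 150 TPM in siDDX5, and CHD3 83.4, 76.8 and 108 TPM in control and 90.4, 67.7 and 107 TPM in siDDX5. CHD4 held 62.8% ± 3.18 of the family in control and 61.3% ± 3.64 in siDDX5. In CPM, CHD4 measured 488, 488 and 474 in control and 459, 439 and 428 in siDDX5. The CHD4 values did not overlap, at a log2 fold change of -0.13 (SE 0.10, adjusted p = 0.643 in edgeR), and CHD3 had one of 0.07 (SE 0.15).

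Both deacetylases had higher CPM in every siDDX5 library than in any control library, and neither was called. HDAC1 (chromosome 1, 32292086 to 32333635, plus strand) measured 119, 115 and 111 CPM in control and 127, 139 and 139 CPM in siDDX5. Its log2 fold change was 0.23 (SE 0.10, adjusted p = 0.411 in edgeR). HDAC2 measured 259, 250 and 239 CPM in control and 271, 302 and 269 CPM in siDDX5 (log2 fold change 0.17, SE 0.10, adjusted p = 0.557 in edgeR). HDAC2 held 75.5% ± 0.561 of the pair in TPM over all transcripts in control and 75.3% ± 1.8 in siDDX5, with overlap. In protein-coding transcripts alone it held 76.4% ± 0.0777 in control and 74.9% ± 0.735 in siDDX5, without overlap.

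MTA2 (chromosome 11, 62593214 to 62601840, minus strand) is a scaffold that recruits the deacetylases. It had the smallest p of the 36 subunits in the edgeR fit with the group alone. SMARCC2 had it with the replicate block, and ARID2 in DESeq2 and without the count filter. DPF1 and DPF3 had a smaller p than MTA2 with length-scaled TPM counts and in both limma fits on TPM. MTA2 measured 158, 149 and 137 CPM in control and 121, 121 and 110 CPM in siDDX5. The groups did not overlap in CPM or in TPM, and the log2 fold change was -0.33 (SE 0.10), a ratio of 0.794, with an adjusted p of 0.265 in edgeR and 0.0687 with the replicate block. MTA1, its relative, measured 76.4, 65.5 and 60.0 CPM in control and 57.7, 62.0 and 50.2 CPM in siDDX5, with overlap (log2 fold change -0.25, SE 0.13, adjusted p = 0.504 in edgeR). MTA3 had a log2 fold change of 0.02 and held 20% ± 1.66 of the MTA family in TPM in control and 24.5% ± 1.79 in siDDX5, without overlap. MTA2 led the family with 47.7% ± 2.72 in control and 45.4% ± 2.5 in siDDX5, with overlap. Its share did not overlap in protein-coding transcripts alone (60.8% ± 1.66 and 55.8% ± 0.5) or in estimated counts (58.3% ± 0.885 and 55.0% ± 0.221).

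MBD3, the methyl-CpG-binding-domain subunit that does not need methylated DNA, measured 52.1, 58.2 and 44.8 TPM in control and 54.2, 53.7 and 46.8 TPM in siDDX5. MBD2, which binds methylated DNA, had a mean of 22.8 ± 3.3 TPM in control and 26.1 ± 1.59 in siDDX5. MBD3 held 69.4% ± 0.385 of the pair in control and 66.4% ± 0.681 in siDDX5, without overlap (exact permutation p = 0.1, adjusted over 14 families 0.7). In protein-coding transcripts alone that share was 74.0% ± 4.29 and 73.6% ± 0.875, with overlap. GATAD2A, which bridges the MBD subunit and the CHD ATPase, measured 64.7, 72.5 and 67.4 TPM in control and 74.1, 52.7 and 62.1 TPM in siDDX5, and held 75.0% ± 3.12 and 76.7% ± 0.574 of its pair with GATAD2B. The log2 fold changes of MBD3, MBD2, GATAD2A and GATAD2B were 0.04, 0.12, -0.05 and 0.05.

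One paralog led its family in every library for 14 of 14 families in TPM over all transcripts. The leader's share did not overlap between the groups in 2 families, DPF and MBD. In protein-coding transcripts alone the same paralog led the control mean in 12 of 14 families, the exceptions being SMARCD and BCL7, and for 7 of the leaders over all transcripts the share did not overlap between the groups. Those with a lower coding share in siDDX5 were SMARCC2, ARID1A (69.9% ± 1.4 and 66.2% ± 2.05), HDAC2 and MTA2, and those with a higher one were DPF2 (67.2% ± 1.09 and 74.5% ± 2.3), SS18 (74.9% ± 1.38 and 78.8% ± 1.66) and BRD7 (87.6% ± 0.81 and 90.7% ± 2.25). Each has an exact permutation p of 0.1, the smallest possible here, and no share over other gene families was computed to set this count against.

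**Figure D3:**
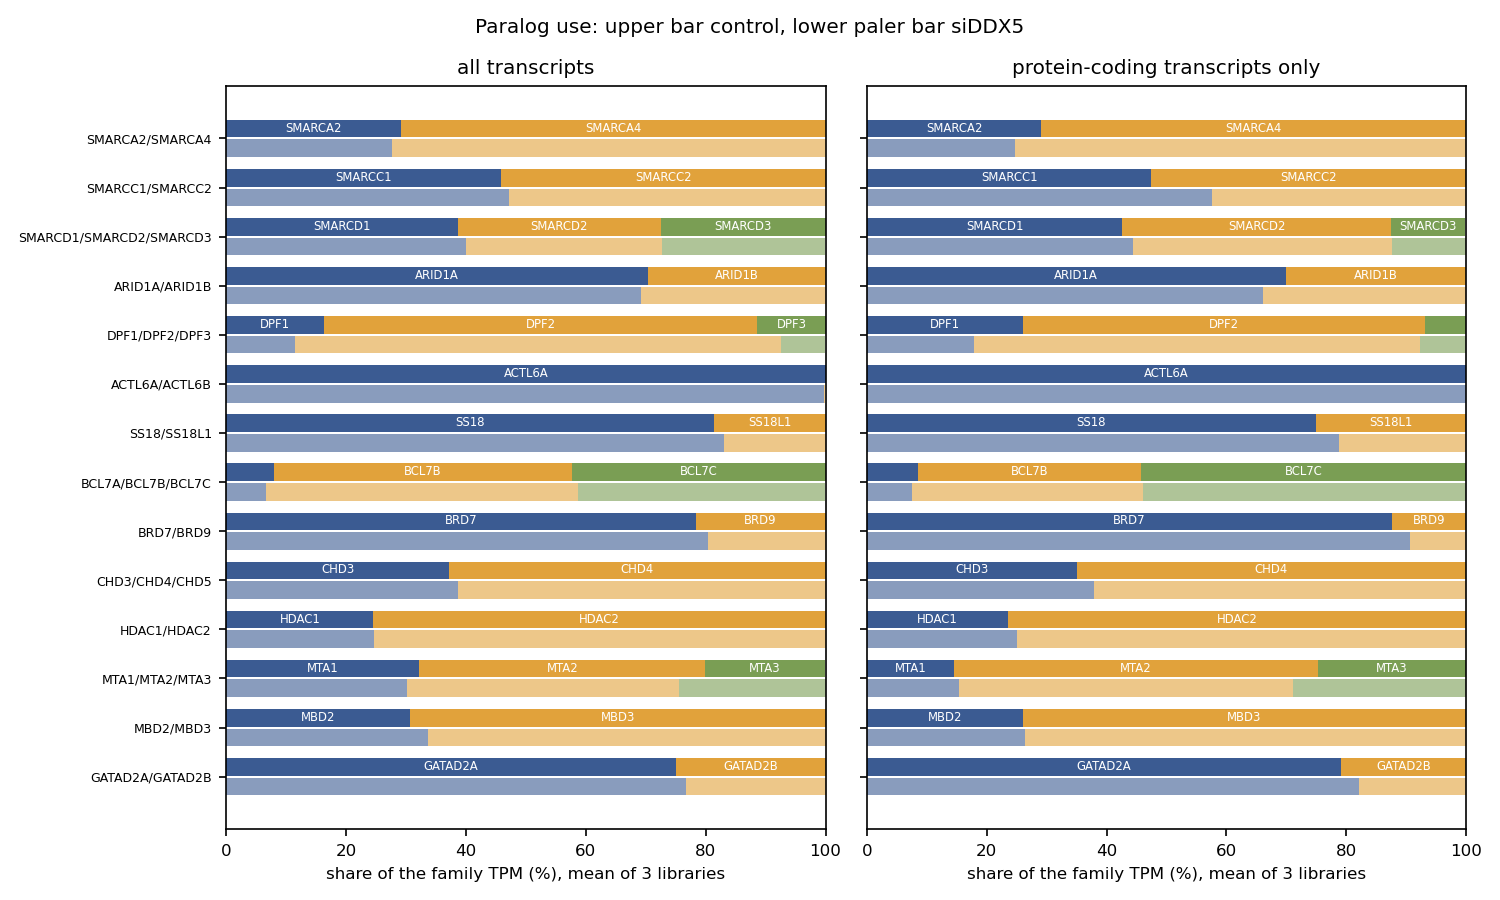
Mean share of each paralog in the TPM of its family over 3 libraries, from all transcripts (left) and from protein-coding transcripts only (right), with control as the upper bar and siDDX5 as the lower, paler bar of each family. SMARCA4, ARID1A, DPF2, ACTL6A, SS18, BRD7, CHD4, HDAC2, MBD3 and GATAD2A exceed 60% of their families in control in both panels, and SMARCC2 lies below SMARCC1 in siDDX5 in the right panel.

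Transcript usage, the division of a gene's reads among its transcripts, was called in 2 of 36 subunits, SMARCA4 and HDAC2 (Simes test on edgeR's diffSpliceDGE), against 168 of 10704 genes (1.57%). With the replicate block HDAC2 alone was called, against 1.2% of genes. For HDAC2 the adjusted p in edgeR was 0.0451, and 0.00489 with the block. For SMARCA4 the values were 0.0299 and 0.334. The call of HDAC2 was lost without control replicate 1, control replicate 3, siDDX5 replicate 2 or siDDX5 replicate 3, and that of SMARCA4 was lost without any library other than siDDX5 replicate 2. Both were lost when transcripts had to average 50 counts.

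In HDAC2 the deciding transcript was ENST00000519108. It measured 6.38, 54.9 and 36.4 TPM in control and 70.0, 85.7 and 146 TPM in siDDX5. Every siDDX5 value lay above every control value, although control replicate 1 was far below the other controls. Its share of the HDAC2 counts was 12.2% ± 9.19 in control and 34.3% ± 14.8 in siDDX5. ENST00000368632, the most used transcript in control, measured 207, 150 and 168 TPM in control and 175, 152 and 90.9 TPM in siDDX5, with overlap. The pair share the same coding sequence of 1374 bases on the minus strand of chromosome 6 and start from different non-coding first exons, at 113970857 to 113971157 for ENST00000368632 and 113970480 to 113970724 for ENST00000519108 (GRCh38). The annotated starts lie 433 bases apart, with that of ENST00000519108 downstream, so the predicted protein is the same.

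In SMARCA4 the deciding transcript, ENST00000429416, was a minor one. It measured 1.24, 1.8 and 1.42 TPM in control and was listed at 0, or below 1e-06 TPM, in the 3 siDDX5 libraries. It made up 2.41% ± 0.574 of the SMARCA4 counts in control, and 33 SMARCA4 transcripts were tested. Other minor SMARCA4 transcripts also moved to or from 0, in both directions. ENST00000646510 was below 1e-06 TPM in control and at 0.985, 0.854 and 0.455 TPM in siDDX5. ENST00000646693 was at 1.04, 0.421 and 0.73 TPM in control and at 0 in siDDX5. In the usage test ARID2 came next, with an adjusted p of 0.686 in edgeR. Its deciding transcript, ENST00000457135, measured 0.51, 1.08 and 0.282 TPM in control and 1.89, 3.21 and 0.438 TPM in siDDX5, with overlap. The full-length ARID2 transcript ENST00000334344 measured 11.1, 13.0 and 13.0 TPM in control and 10.2, 7.36 and 10.3 TPM in siDDX5, without overlap.

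**Figure D4:**
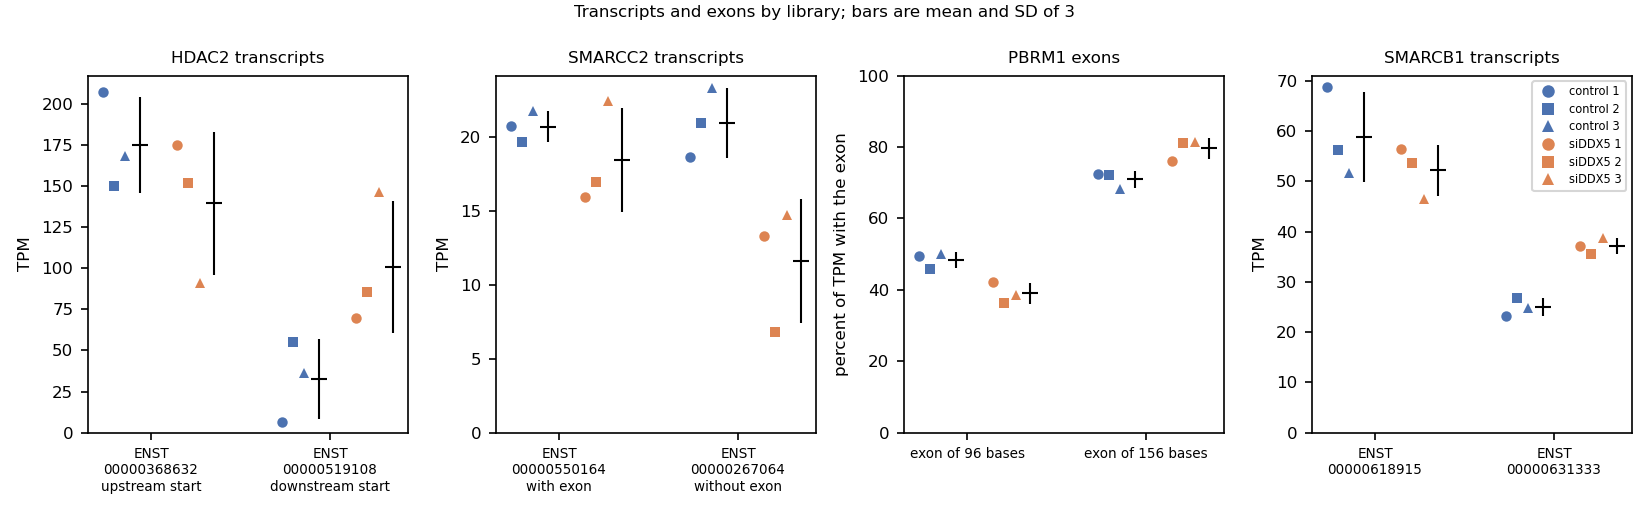
Values by library for a pair of HDAC2 transcripts, a pair of SMARCC2 transcripts and a pair of SMARCB1 transcripts (TPM) and for the use of the 2 PBRM1 exons (percent of the TPM spanning each), with control in blue, siDDX5 in orange, and the mean and SD of 3 libraries as black bars. The groups are apart for HDAC2 ENST00000519108, SMARCC2 ENST00000267064, SMARCB1 ENST00000631333 and both PBRM1 exons, and they overlap for the other transcripts.

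Of 59 other remodeller genes, comprising further BAF and NuRD partners and the ISWI, INO80, SRCAP, EP400 and CHD groups, 58 passed the filter and 0 were called by edgeR, without or with the replicate block. The DESeq2 Wald test called 0 as well, where it called 278 of 15223 genes. At an unadjusted p under 0.05 there were 8 (13.8%), against 11.4% of all genes, with 3 higher and 5 lower in siDDX5. The smallest p belonged to TRRAP, a scaffold of acetyltransferase complexes, at 203 ± 1.53 CPM in control and 146 ± 26.2 CPM in siDDX5. The TRRAP log2 fold change was -0.47 (SE 0.13, adjusted p = 0.231 in edgeR, 0.0526 with the block). The median over the 58 was -0.05, beside 0.00 for the 36 BAF and NuRD subunits.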

How the data were processed

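For 188753 transcripts the authors deposited estimated counts and TPM values, 1 table per library, in kallisto's layout per the file headers. The submitters' processing notes name bcl2fastq 2.20, FastQC 0.11.8, cutadapt 1.11, kallisto 0.46.0 and GRCh38. The transcript annotation and strand setting are not given in the sources used here. TPM is scaled for length and to a common total by the authors, and estimated counts are not normalized.

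Transcripts were joined to genes with GENCODE 29: 169797 by identifier, 15322 by symbol and 890 by position, with 2744 left out. Of the subunits' 685 transcripts, all but 7 of SMARCB1 and 1 of GATAD2B were joined by identifier. Values were summed per gene. Counts were rounded, filtered with filterByExpr and tested over all genes with edgeR 4.0.16 in R 4.3.3 (TMM, quasi-likelihood, group only, Benjamini-Hochberg adjusted p under 0.05). Usage was tested with diffSpliceDGE, and shares with exact two-sided permutation tests. Errors do not include the division of reads among transcripts or gene copies. The steps were tested on simulated data.

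The subunits, lists and named-gene rule were chosen with earlier results of these data known. Values per library were printed for called subunits, the 8 with the smallest p, catalytic or defining subunits and each family's leading paralog; for usage, the 3 with the smallest adjusted p. Exons and other transcripts were chosen after their values were seen. One haematopoietic marker is not reported here.

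Groups and replicate numbers came from the titles. Deviations of same-numbered libraries from their group means correlated at 0.21, 0.27 and 0.58 over 15223 genes, each over 0.1. The titles do not say that the numbers mark a shared batch. The main fit, its intervals and its p-values therefore leave this pairing out, and the replicate block takes it in. Alternatives were the replicate block, DESeq2 1.42.0 size factors and Wald test, other filters, length-scaled TPM counts, limma 3.58.1 on log2(TPM + 1) and log2(TPM + 0.1), the primary-assembly join, and leaving out each library.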

Additional observations from a re-analysis of the deposited data

How the results depend on the processing

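Subunit counts and values were recomputed under 15 alternatives. The number of subunits called was 0 in each, except 1 with the replicate block (SMARCC2, -0.41). Leaving out 1 library gave 0 throughout, where only 0 to 15 of all genes were called. Length-scaled TPM counts called 2 of all genes, and each limma fit called 1. With so few calls over all genes, 0 called subunits in those fits says little about the subunits. Other remodellers stayed at 0 called. The block changed no call of another subunit at the gene level.

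DDX5 missed the threshold with length-scaled TPM counts (-1.37, adjusted p 0.0667 in edgeR) and with limma at -1.44 under both pseudocounts (adjusted p 0.0849 and 0.0927), and ranged from -1.54 to -1.30 when a library was left out.

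Usage calls numbered 2, but 1 with the replicate block, 8 with no filter, 0 at a mean of 50 counts, and 0 to 4 with a library left out. Shares over all genes were computed only for the main fit (1.57%) and the block (1.2%), so the other counts have no background. ARID1B was called with no filter and without siDDX5 replicate 1 or siDDX5 replicate 3. SMARCA2 and GATAD2B were called with no filter and without siDDX5 replicate 1, and CHD4 with no filter. The SMARCA4 share difference ranged from -0.571 (without siDDX5 replicate 2) to 3.48 points with a library left out, and was 4.36 points in protein-coding transcripts.

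Of 360 values for 24 named subunits, 338 kept their direction and side of the threshold, 1 passed it and 21 changed sign, all within 0.17 of 0 on the log2 scale. Sign changes on TPM scales were CHD3 (-0.03 under both pseudocounts), SS18 (-0.17 under both, -0.12 with length-scaled counts) and BRD7 (-0.06 under both, -0.01 with length-scaled counts). With a library left out, values that crossed 0 ranged from -0.02 to 0.21 for CHD3, -0.05 to 0.03 for DPF2, -0.09 to 0.01 for ACTL6A, -0.02 to 0.08 for SS18, -0.13 to 0.14 for MBD3 and -0.12 to 0.04 for GATAD2A. The causes were not tested. The subunits' median was -0.122 and -0.124 in the limma fits, where that of all genes was -0.047 and -0.054. ACTL6B and CHD5, with at most 4 counts in a library, allowed no comparison at this depth.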

Other observations

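The following transcripts were chosen after their values were seen, and no separate test is given for them. In the test of transcript usage, DPF3, BRD9 and HDAC1 were not called, without or with the replicate block. For BRD9 the deciding transcript in that test was ENST00000495265, given below. HDAC1 was called with no count filter, and also when control replicate 2 was left out. DPF3 ENST00000381216, annotated for nonsense-mediated decay, measured 2.3, 2.6 and 3.28 TPM in control and 0.815, 1.17 and 1.14 TPM in siDDX5, so that its share of the DPF3 counts was 59.0% ± 5.88 in control and 32.1% ± 1.92 in siDDX5 (SD, n = 3). The protein-coding DPF3 transcripts together measured 1.7 ± 0.278 TPM in control and 1.79 ± 0.465 TPM in siDDX5, with the groups overlapping in this sum. The lower DPF3 total in siDDX5 thus lay in transcripts not annotated as protein-coding.

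BRD9 ENST00000495265, likewise annotated for nonsense-mediated decay, measured 0.757, 0.54 and 1.85 TPM in control and 2.19, 2.86 and 3.71 TPM in siDDX5, without overlap. The main HDAC1 transcript, ENST00000373548, measured 72.9, 70.0 and 69.7 TPM in control and 86.3, 85.8 and 88.8 TPM in siDDX5, also without overlap. HDAC1 was at 90.7 ± 1.19 TPM over all transcripts in control and 99.4 ± 4.98 in siDDX5. Of the 35 subunits tested other than SMARCB1, the share of TPM in protein-coding transcripts was higher in every siDDX5 library than in any control library for 6 (SMARCC1, SMARCD2, BRD7, DPF3, SS18 and HDAC1) and lower for 1 (SMARCC2). These are 17.1% and 2.86% of the 35, against 7.53% and 3.71% of the 11681 genes tested that have both a protein-coding and another transcript.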
